A study of Mus musculus with 4 samples.

Results

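The mitochondrial ribosome (mitoribosome) is the ribosome that works inside mitochondria. It translates the few messages of the mitochondrial genome, which encode core subunits of the respiratory chain. Its ribosomal RNAs come from mitochondrial DNA, whereas all of its proteins are encoded in the nucleus, made in the cytosol and imported. Some of these proteins have counterparts in bacterial ribosomes and others were added in the mitochondrial lineage. The nuclear genes named Mrpl (mostly large subunit) or Mrps (mostly small subunit) followed by a digit, and annotated as protein-coding in GENCODE mouse release M21, gave 78 genes, all of them among the 55401 genes of the count table.

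The study sequenced polyadenylated RNA from R1 mouse embryonic stem cells and asked how knockout of Usp28, a deubiquitinase gene, alters expression. There were 2 control libraries (genotype WT) and 2 libraries of Usp28 KO cells, numbered 1 and 2 in each group. All 4 came from cells grown in serum-free N2B27 medium with the MEK inhibitor PD0325901, the GSK3 inhibitor CHIR99021 and LIF. The labels do not say how the knockout was made, how many clones it rests on, or whether replicate libraries are separate cultures. The p-values therefore rest on the spread among these 4 libraries alone, and that spread may be technical.

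The libraries held 16595196 to 19533608 counts. Of 8 embryonic stem cell markers all 8 were tested, with a summed level of 5012 and 5249 counts per 1000000 (CPM) in the control and 5297 and 5336 CPM in the Usp28 KO libraries. Of 7 fibroblast feeder markers only Thy1 passed the filter on low counts, at 0.358 to 0.8 CPM, and Lum, Dcn and Postn had 0 counts in every library. Of 6 primitive endoderm markers 4 were tested, with a summed level of 8.07 to 11.8 CPM. Of 6 neural progenitor markers 4 were tested, with a summed level of 77.4 to 115.5 CPM, and Neurog2 and Dcx had 0 counts. Tubb3 was the highest of the 4, at 68.9 and 33.6 CPM in control and 47.5 and 42.1 CPM in Usp28 KO libraries. In bulk RNA, fewer cells of a type and less RNA per cell cannot be told apart. Usp28 itself stood at 188.9 and 196.7 CPM in the control libraries and 181.5 and 177 CPM in the libraries labelled Usp28 KO, so the gene-level count does not check the label.

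No mitoribosomal protein gene passed the edgeR, DESeq2 or limma-voom test on the 4 libraries. For nearly all of them the 95% interval excluded a 2-fold change, as it did for 8530 of the 9800 genes of similar level. The 78 genes together took 0.3529% and 0.3319% of all counts in control libraries 1 and 2, and 0.351% and 0.3442% in Usp28 KO libraries 1 and 2. Of the 78, 77 passed the filter. By edgeR's quasi-likelihood test 0 of 77 were higher and 0 lower in Usp28 KO at an adjusted p under 0.05, where 0% of the 15341 genes tested were called in each direction. At an unadjusted p under 0.05, 0 members were higher and 0 lower, against 6.86% and 4.34% of all genes tested. DESeq2 called 0 of 77 members in each direction, where it called 0.604% of genes higher and 0.365% lower, and limma-voom called 0 members and 0 genes. The lowest edgeR adjusted p of any member was 0.507.

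The members lay in a narrow band of fold changes. A log2 fold change below 0 means a lower level in Usp28 KO than in control cells. Their median over the 77 members was -0.043, with quartiles of -0.12 and 0.058 and a range from -0.38 to 0.42. It was 0.018 with library totals in place of TMM scaling (trimmed mean of M values) and 0.0077 without control library 1. Over all genes tested the median was -0.0040 and the quartiles were -0.19 and 0.24. A change of more than 1.5-fold was estimated for 0 members, for 14.7% of all genes tested, and for 7.63% of the 9800 genes whose mean level fell within the members' range of 3.93 to 161 CPM. A change of more than 1.2-fold was estimated for 10 members (13%), and for 33% of the genes in that range. More than 1.5-fold was likewise estimated for 0 subunits under other symbols, assembly factors, translation factors, tRNA charging genes and mitochondrial DNA maintenance genes. It was estimated for 1 transcription factor of mitochondrial genes, 1 mitochondrial rRNA and 1.22% of 82 cytosolic ribosomal protein genes. Replicate gaps were narrower too, though they were not compared at matched level. Their SD (log2) in control and Usp28 KO was 0.268 and 0.327 over members. It was 0.464 and 0.459 over all genes tested, whose mean levels start at 0.314 CPM. The 95% interval of the fold change, for each gene on its own, excluded a 2-fold change in either direction for 76 of 77 members and a 1.5-fold change for 50 of 77. Among the 9800 genes in the members' range of levels, it excluded these for 8530 and 4071. The member that missed the 2-fold bound was Mrpl43, whose interval ran from -0.31 to 1.15.

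**Figure D1:**
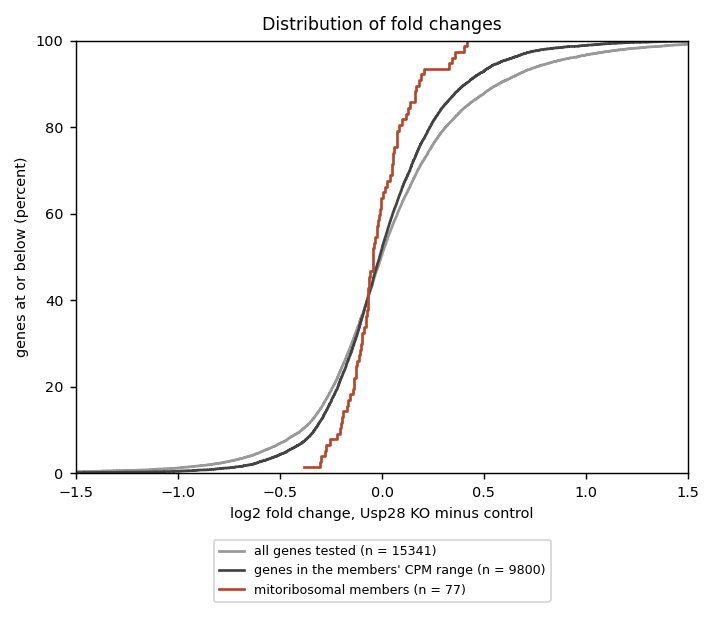
Cumulative distribution of log2 fold changes (Usp28 KO minus control, x axis) as the percent of genes at or below each value (y axis), for the 77 members, for the 9800 genes in the members' CPM range and for all 15341 genes tested. The curve of the members is the steepest of the 3 and ends at -0.38 and 0.42.

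The groups did not overlap for 17 members. Of these, 4 (5.19%) had both Usp28 KO libraries above both control libraries and 13 (16.9%) had both below, where the shares over all genes tested were 21.4% and 20.4%. The 4 with higher levels were Mrpl23, Mrpl28, Mrps16 and Mrps21. The libraries within a group often differed more than the groups did. The difference between group means was smaller than both replicate gaps for 41 of 77 members (53.2%) and larger than both for 13 (16.9%). Over all genes tested, not matched for level, these shares were 38.8% and 29.6%. Control library 2 was below control library 1 for 49 members, with a median gap of -0.13 (log2), and Usp28 KO library 2 was below library 1 for 47, with a median gap of -0.068.

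Members differed far more among themselves than between groups. Levels between genes are given as CPM per kilobase of exon, using the exon length in the deposited table, which joins all annotated exons of a gene and so lowers the value where long alternative exons are annotated. The large subunit proteins, 50 tested genes including Mrps30 and Mrps18a, which belong to the large subunit despite their names, had a median of 16.7 CPM per kb. The small subunit proteins, 26 genes, had a median of 13.5 CPM per kb. The highest member was Mrpl12, which forms the flexible stalk that recruits translation factors, with 63.6 and 83.3 CPM per kb in control libraries 1 and 2 and 58.5 and 88.8 CPM per kb in Usp28 KO libraries 1 and 2. It was high in library 2 of both groups, and the groups overlapped. Next came Mrpl2, a protein near the peptidyl transferase centre, at 65.1 CPM per kb over the 4 libraries, and Mrpl34 at 50.4. The ranges of Mrpl12 and Mrpl2 over libraries overlapped. At the bottom of the large subunit were Mrpl48 at 1.72, Mrpl33 at 1.77 and Mrpl43 at 4.09 CPM per kb, a 42.7-fold span from the highest to the lowest. In the small subunit the highest were Mrps2 at 37.2, Mrps15 at 35.1 and the decoding-centre protein Mrps12 at 28.4 CPM per kb. The lowest were Mrps35 at 5.86, Mrps25 at 4.38 and Mrps6 at 2.57 CPM per kb. Mrps18a, Mrps18b and Mrps18c descend from a single bacterial small-subunit protein, and only Mrps18c sits at its place, so the other two are grouped with the mitochondria-specific proteins. By the length of all exon bases, Mrps18b stood at 21.1 CPM per kb, Mrps18a at 9.16 and Mrps18c at 7.32.

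**Figure D2:**
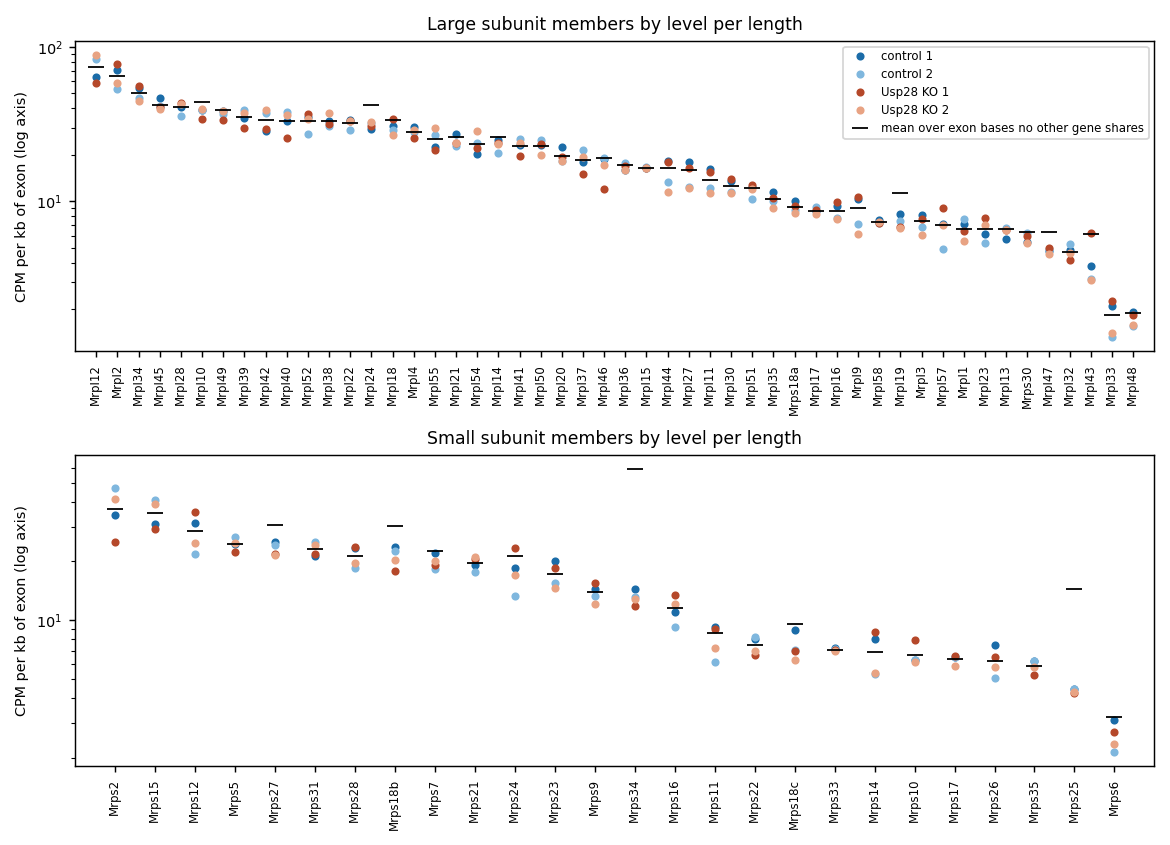
Level of each large subunit member (top, 50 genes) and small subunit member (bottom, 26 genes) as CPM per kilobase of exon on a log axis, with 1 point per library and a black bar for a 4-library mean. For the bar, all counts of the gene are divided by the length of the exon bases that no other gene shares. Points of 1 gene lie close together relative to the span from Mrpl12 to Mrpl48, and the bar lies far above the points for Mrps34 and Mrps25.

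Overlapping neighbours bear on several of these levels. Among protein-coding genes whose exons all lie within exons of other genes, 91.2% of 181 had 0 counts in every library, as did 31 of the 31 covered only by genes on the opposite strand, against 29% of the 15428 that share no exon base. A second level is therefore given beside the first, in which all counts of a gene are divided by the length of its unshared exon bases. It takes every counted read to lie on unshared bases, which was not tested. Of the 77 tested members 31 shared at least 1 exon base with another gene, and 16 shared at least 10%. Mrpl53, a mitochondria-specific large subunit protein (ENSMUSG00000030037, mm10 chromosome 6, 83109040 to 83109939), was the member that did not pass the filter. It had 0 counts in all 4 libraries, which allows at most 0.154 to 0.181 CPM per library by counting error alone. Gm42688, a gene model on the same strand with 16, 11, 5 and 17 counts, covers 88% of its exon bases, and the level of the Mrpl53 transcript cannot be read from this table. Mrps34 shares 63.4% of its exon bases with Mapk8ip3 on the opposite strand and 37% with Nme3 on its own strand. Its level was 13.1 CPM per kb by the length of all its exon bases. The same counts divided by the unshared length alone gave 58.9, the highest value of the small subunit on that measure. Mrps25 shares 69.8% with Nr2c2 and moved from 4.38 to 14.5 CPM per kb in the same way. Mrps18b and Mrps18c share 30.5% and 23.2% of their exon bases with other genes. By unshared length they stood at 30.3 and 9.54 CPM per kb, against 9.16 for Mrps18a. The order of Mrps18a and Mrps18c thus depended on the measure. Mrpl43 shares 33.4% with Twnk, which encodes the mitochondrial DNA helicase, and Mrps6 shares exon bases with Slc5a3 and Gm49711. Where the counted reads of these members fall cannot be read from the table.

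Among large subunit proteins with bacterial homologues, 30 genes, 17 had a log2 fold change below 0 and 13 above, with a median of -0.012 (0.050 with library totals and 0.026 without control library 1). Mrpl23, which lines the rim of the exit tunnel (ENSMUSG00000037772, chromosome 7, 142532686 to 142540747), stood at 30.1 and 26.4 CPM in the control libraries and at 37.9 and 34.5 CPM in the Usp28 KO libraries. Both Usp28 KO libraries were above both controls. The log2 fold change of 0.36 ± 0.19 (SE, edgeR, adjusted p = 0.507) had the lowest p of any member and ran from 0.26 to 0.45 when a library was left out. Mrpl1, part of the mobile stalk beside the tRNA exit site, stood at 30.5 and 32.9 CPM in control and 27.6 and 23.7 CPM in Usp28 KO libraries, with no overlap. Its log2 fold change was -0.30 ± 0.19 (edgeR, adjusted p = 0.602). Mrpl19, at the interface with the small subunit, had 44.9 and 40.6 CPM in control and 36.9 and 36.4 CPM in Usp28 KO libraries (log2 difference -0.22 ± 0.17). Of the stalk proteins, Mrpl10 differed by -0.079 ± 0.17 and Mrpl12 by 0.0055 ± 0.21. Mrpl12 turned from -0.33 to 0.27 depending on the library left out.

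Among the mitochondria-specific large subunit proteins, 20 tested genes, 13 had a log2 fold change below 0 and 7 above, with a median of -0.057 (0.0027 with library totals and -0.015 without control library 1). The member with the lowest fold change was Mrpl46, a protein of the central protuberance (ENSMUSG00000030612, chromosome 7, 78775236 to 78783531). It stood at 26.7 and 27.2 CPM in control libraries 1 and 2 and at 16.9 and 24.4 CPM in Usp28 KO libraries 1 and 2. The control libraries were close together, and the gap came mostly from Usp28 KO library 1. The log2 fold change was -0.38 ± 0.22 (edgeR, adjusted p = 0.554), and it was -0.15 without Usp28 KO library 1 and -0.68 without Usp28 KO library 2. Mrpl37 had 80.3 and 96.2 CPM in control and 67.3 and 85.8 CPM in Usp28 KO libraries, with overlap (log2 fold change -0.20 ± 0.18). At the other end, Mrpl43 had 5.84 and 4.79 CPM in control and 9.52 and 4.69 CPM in Usp28 KO libraries. Its log2 fold change of 0.42 ± 0.34 rested on Usp28 KO library 1 and was -0.18 without it. Mrpl57 had 21.2 and 14.6 CPM in control and 26.6 and 20.6 CPM in Usp28 KO libraries, with overlap, and differed by 0.40 ± 0.23 (edgeR, adjusted p = 0.575). It ranged from 0.15 to 0.70 with a library left out. Mrpl54 differed by 0.21 ± 0.22 and was -0.049 after a correction of each library for the GC content of transcripts. Mrpl45, which sits at the tunnel exit next to the inner membrane, had 121.9 and 107.8 CPM in control and 106.7 and 102.4 CPM in Usp28 KO libraries, without overlap (log2 fold change -0.14 ± 0.16). Without control library 1 it was -0.046. Mrpl58, a peptidyl-tRNA hydrolase that frees stalled ribosomes and is built into the large subunit, differed by -0.019 ± 0.19. Mrps30 and Mrps18a differed by -0.043 ± 0.18 and -0.089 ± 0.18.

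**Figure D3:**
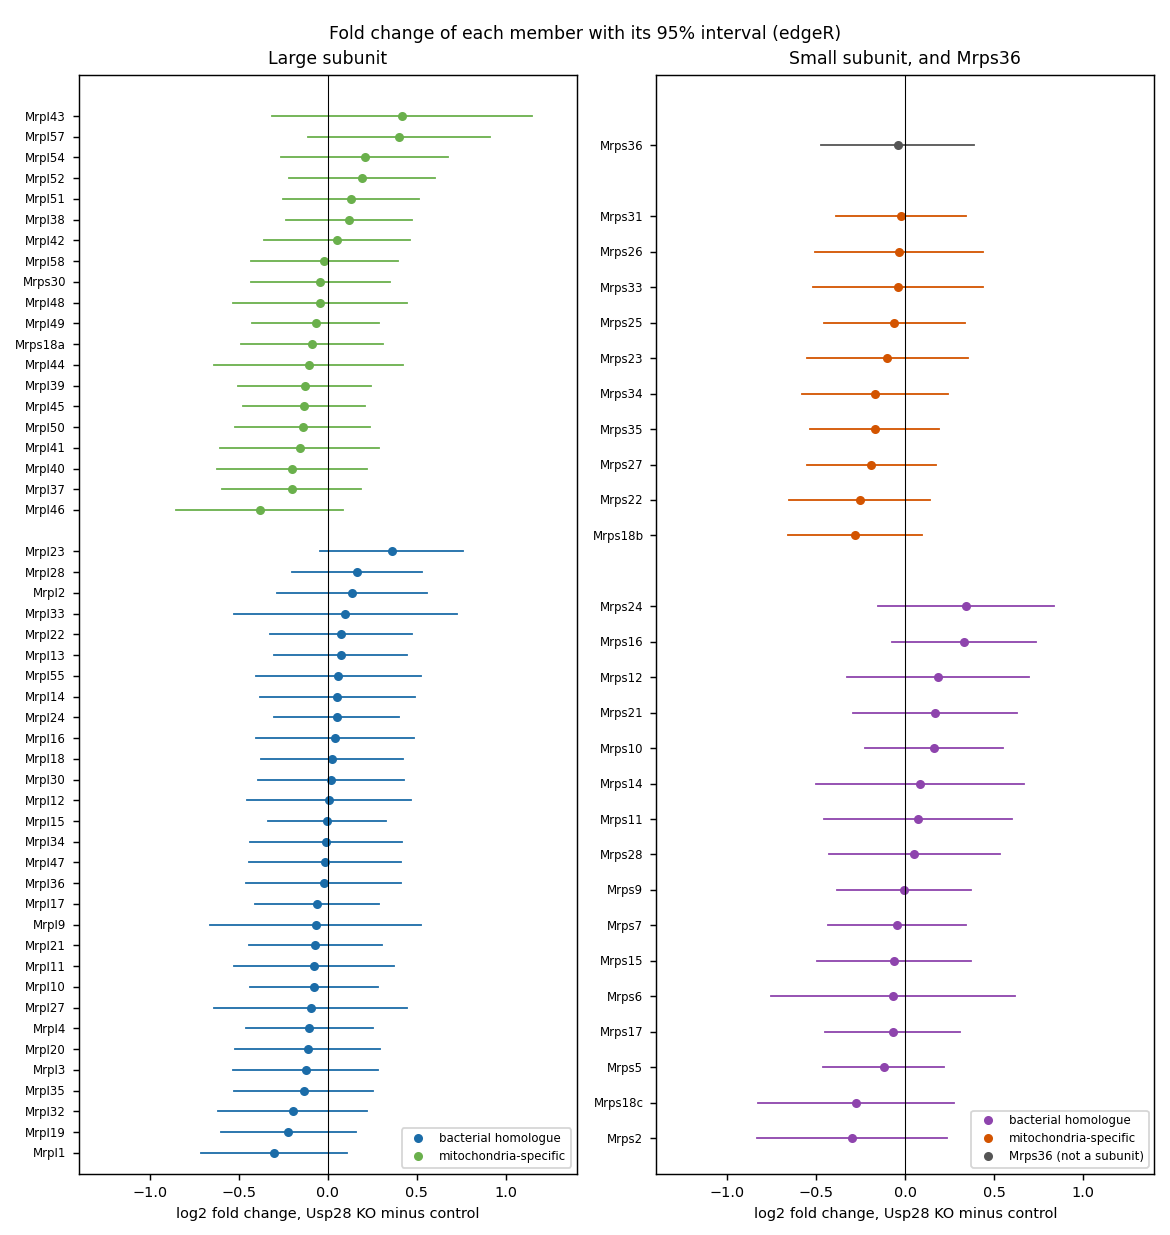
Log2 fold change (Usp28 KO minus control, x axis) of each of the 77 tested members, with 95% intervals from edgeR as horizontal lines, by subunit and by whether the protein has a bacterial homologue. All 77 intervals cross 0, and the 10 mitochondria-specific small subunit members lie to the left of 0.

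In the small subunit, the 10 mitochondria-specific members tested all had a log2 fold change below 0, as did 7757 of all 15341 genes tested. Their median was -0.13, and the 16 members with bacterial homologues had 8 below and 8 above, with a median of 0.023. For 7 of the 10 both Usp28 KO libraries lay below both controls, which held for 1 of the 16 and for 20.4% of all genes tested. By edgeR 0 of the 10 passed at an adjusted p under 0.05, 0 had an unadjusted p under 0.05, and DESeq2 called 0. The difference between both classes was not tested. The count of 10 was 7 with library totals in place of TMM, 8 after GC correction, and 8 or 9 with any library left out. Of the 16, 5 were below 0 without control library 1 or Usp28 KO library 2, and 11 without control library 2 or Usp28 KO library 1. The median of the 10 was -0.075 with library totals and between -0.23 and -0.11 with a library left out, and the median of the 16 was 0.19 without control library 1 and -0.074 without control library 2. Mrps18b had 49.3 and 47.2 CPM in control and 37.1 and 42.4 CPM in Usp28 KO libraries (log2 difference -0.28 ± 0.17, edgeR, adjusted p = 0.6). Mrps22, whose human counterpart is mutated in a mitochondrial translation disorder, had 32.1 and 33 CPM in control and 26.6 and 27.8 CPM in Usp28 KO libraries (-0.26 ± 0.18). For Mrps22 the gaps between replicates were small beside the gap between groups, and for Mrps18b the Usp28 KO libraries were farther apart than the nearest control and Usp28 KO libraries. Mrps27, an RNA-binding pentatricopeptide repeat protein, had 52.4 and 50.9 CPM in control and 45.6 and 44.9 CPM in Usp28 KO libraries (-0.19 ± 0.17).

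Small subunit members with bacterial homologues spread in both directions. Mrps2 (ENSMUSG00000035772, chromosome 2, 28468066 to 28471178) had 101 and 138.5 CPM in control libraries 1 and 2 and 73.1 and 121.6 CPM in Usp28 KO libraries 1 and 2. Library 2 was higher in each group and the groups overlapped. Its log2 fold change was -0.30 ± 0.24 (edgeR, adjusted p = 0.701). It was 0.022 without Usp28 KO library 1 and -0.72 without Usp28 KO library 2, and each of these fits holds a lone Usp28 KO library. Mrps18c, at 9.62 and 7.63 CPM in control and 7.54 and 6.72 CPM in Usp28 KO libraries, differed by -0.28 ± 0.25. Mrps16 had 31.8 and 26.7 CPM in control and 38.7 and 35 CPM in Usp28 KO libraries, with no overlap (log2 fold change 0.33 ± 0.19, edgeR, adjusted p = 0.555). Mrps24, at the channel where messenger RNA enters, had 27.2 and 19.6 CPM in control and 34.3 and 25 CPM in Usp28 KO libraries, with overlap (0.34 ± 0.23). It was 0.095 without Usp28 KO library 1 and 0.60 without control library 1. Mrps12 had 32.7 and 22.6 CPM in control and 37.1 and 25.9 CPM in Usp28 KO libraries. Library 1 was higher in each group, and the log2 fold change of 0.18 ± 0.23 turned to -0.10 without Usp28 KO library 1 and to -0.065 without control library 2. Mrps21 had 14.2 and 13 CPM in control and 15.1 and 15.5 CPM in Usp28 KO libraries, with no overlap (0.17 ± 0.21). Mrps36, which carries the family name but belongs to the alpha-ketoglutarate dehydrogenase complex and not to the mitoribosome, differed by -0.042 ± 0.20.

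**Figure D4:**
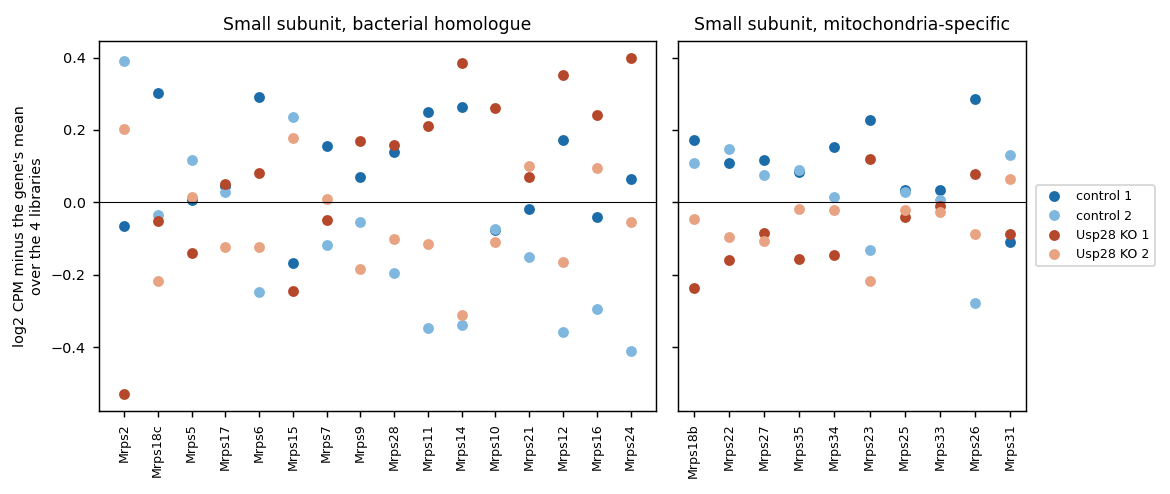
Log2 CPM of each small subunit member in each of the 4 libraries, minus the mean of that gene over the libraries (y axis), for the 16 members with bacterial homologues (left) and the 10 mitochondria-specific members (right), ordered by fold change. On the right both Usp28 KO points lie below both control points for 7 of 10 genes, and the count of fold changes below 0 is 10, or 7 with library totals in place of TMM.

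GC content moved with the fold changes. The transcripts of the 77 members held 40.6% to 60.8% G and C, with a median of 51.3%. Across these genes, which are not independent replicates, the log2 fold change had a Spearman rho of 0.324 with GC content, and rho was 0.295 across 15328 genes tested. GC content also moved with the gaps between replicates: rho with control library 2 minus control library 1 was -0.205 over members and -0.282 over all genes, and with Usp28 KO library 2 minus library 1 it was 0.0776 and 0.194. The rho over members was 0.064 for the difference between the libraries numbered 1 and 0.472 for that between the libraries numbered 2. Over all genes tested these were 0.0267 and 0.492. The 26 members of highest GC content had a median log2 fold change of 0.038, the 25 in the middle -0.071 and the 26 lowest -0.043. After GC correction the median over all 77 members was -0.10, with 53 below 0 and 24 above, in place of 49 and 28. The part of GC content in the fold changes was not tested.

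Several mitoribosomal genes start head to head with a neighbour on the opposite strand. RefSeq promoter windows (GRCm38.p6, 250 bases before to 50 after a transcript start) were found for 69 of the 78 members, 75 windows in all. In 22 members the window overlapped that of a gene on the opposite strand, which gave 21 pairs, and in 11 pairs the log2 fold changes had opposite signs. The pair in which both genes are members is Mrpl46 and Mrps11, whose windows share 141 bases. Their windows are shown with those of Mrps12, Mrpl43 and Mrpl57, members with positive fold changes whose divergent partners were below 0. The 4 pairs were chosen after their values were seen. The windows are chr7:78783040-78783339 (minus strand) for Mrpl46, chr7:78782881-78783180 (plus strand) for Mrps11, chr7:28741772-28742071 (minus strand) for Mrps12, chr19:45006393-45006692 (minus strand) for Mrpl43 and chr14:57825989-57826288 (plus strand) for Mrpl57. Each reads 5′ to 3′ on the strand of the member, and capitals mark matches to the motifs described after the sequences.
Mrpl46: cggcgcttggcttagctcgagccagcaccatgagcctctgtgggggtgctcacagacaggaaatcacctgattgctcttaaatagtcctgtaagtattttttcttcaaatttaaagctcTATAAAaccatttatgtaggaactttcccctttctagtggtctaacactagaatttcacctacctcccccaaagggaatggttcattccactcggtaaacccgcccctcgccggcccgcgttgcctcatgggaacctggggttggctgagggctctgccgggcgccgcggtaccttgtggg
Mrps11: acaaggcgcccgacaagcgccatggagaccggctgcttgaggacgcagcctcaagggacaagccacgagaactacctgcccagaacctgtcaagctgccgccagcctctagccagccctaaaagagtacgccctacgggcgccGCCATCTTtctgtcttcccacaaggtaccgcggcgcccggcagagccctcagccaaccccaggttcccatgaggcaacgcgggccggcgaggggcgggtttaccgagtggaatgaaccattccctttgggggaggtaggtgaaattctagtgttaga
Mrps12: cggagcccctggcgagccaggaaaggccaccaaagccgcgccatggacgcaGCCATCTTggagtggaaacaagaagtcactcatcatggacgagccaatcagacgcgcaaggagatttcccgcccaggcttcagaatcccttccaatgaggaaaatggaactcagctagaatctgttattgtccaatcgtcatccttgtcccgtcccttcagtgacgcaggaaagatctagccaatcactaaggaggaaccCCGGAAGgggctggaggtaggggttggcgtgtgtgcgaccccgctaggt
Mrpl43: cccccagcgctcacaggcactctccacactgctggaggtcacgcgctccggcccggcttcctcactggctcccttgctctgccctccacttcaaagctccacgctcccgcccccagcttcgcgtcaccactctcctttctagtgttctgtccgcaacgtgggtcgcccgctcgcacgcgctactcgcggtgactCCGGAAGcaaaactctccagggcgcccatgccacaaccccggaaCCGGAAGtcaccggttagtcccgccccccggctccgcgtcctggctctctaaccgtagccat
Mrpl57: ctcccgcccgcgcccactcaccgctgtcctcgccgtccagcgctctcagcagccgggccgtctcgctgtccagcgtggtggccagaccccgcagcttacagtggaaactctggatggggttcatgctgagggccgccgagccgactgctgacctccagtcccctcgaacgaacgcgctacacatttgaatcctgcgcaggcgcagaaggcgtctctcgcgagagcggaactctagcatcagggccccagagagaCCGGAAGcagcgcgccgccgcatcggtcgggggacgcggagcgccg

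From the shared Mrpl46 and Mrps11 region, Mrpl46 differed by -0.38 ± 0.22 and Mrps11 by 0.071 ± 0.24. Mrps11 stood at 20.2 and 13.4 CPM in control and 19.7 and 15.7 CPM in Usp28 KO libraries, with overlap. Mrpl57 and Ska3, a gene of the kinetochore, share 175 window bases. Ska3 stood at 56.4 and 64.8 CPM in control and 43.8 and 46.1 CPM in Usp28 KO libraries, without overlap. Its log2 fold change was -0.43 ± 0.17 (edgeR, adjusted p = 0.365), against 0.40 for Mrpl57. Mrps12 and Sars2, the mitochondrial seryl-tRNA synthetase, share 246 bases. Sars2 stood at 50.7 and 44.5 CPM in control and 33.2 and 41.2 CPM in Usp28 KO libraries (-0.35 ± 0.19, edgeR, adjusted p = 0.513), against 0.18 for Mrps12. Mrpl43 and Twnk share 215 window bases as well as exon bases, and Twnk differed by -0.15 ± 0.17. The differences within pairs were not tested.

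Of motifs for factors known to act on nuclear genes of mitochondrial proteins, the ETS motif CCGGAAG bound by GABPA was in 26 of 75 member windows (34.7%), against 17% of the 13558 windows of tested genes and 8.9% of all 32851 windows. The YY1 motif AAGATGGC was in 12 (16%), against 4.2% and 2.7%. The palindromic NRF1 core motif was in 3 (4%), against 2% and 1%. The E-box CACGTG was in 7 windows (9.3%), against 9.9% and 7.2%, of 5 members, since 3 overlapping windows of Mrpl2 hold the same site. The TATA motif TATAAA was in 5 (6.7%), against 7% and 13.6%. Both strands were searched, and no motif holds another. Of the printed windows, Mrpl43 has 2 ETS matches, starting at positions -56 and -12 from the transcript start, Mrpl57 has an ETS match at position 5, and Mrps12 has a YY1 match at -199 and an ETS match at position 2, where the first transcribed base is position 1. Mrps11 has a YY1 match at -107 and Mrpl46 a TATAAA match at -131. The median log2 fold change was -0.036 in 25 members with the ETS motif and -0.063 in 43 without, and -0.057 in 12 members with the YY1 motif and -0.043 in 56 without. For the E-box it was -0.11 in 5 members with it and -0.043 in 63 without. For the NRF1 core it was -0.13 in 3 with and -0.042 in 65 without, and for TATAAA -0.045 in 5 with and -0.043 in 63 without. These differences were not tested.

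The remaining genes of mitochondrial gene expression were examined in 7 lists, and by edgeR 0 genes of any list passed at an adjusted p under 0.05. Of the 5 mitoribosome subunits under other symbols, 3 were above 0 and 2 below (median 0.0018, between -0.17 without control library 2 and 0.20 without control library 1). Dap3, a GTP-binding small subunit protein, had 87.5 and 80 CPM in control and 104.1 and 93.5 CPM in Usp28 KO libraries (log2 difference 0.24 ± 0.16), without overlap. Ptcd3, a small subunit protein with pentatricopeptide repeats, had 147.1 and 161.9 CPM in control and 136.7 and 126.5 CPM in Usp28 KO libraries (-0.23 ± 0.16), also without overlap, and Chchd1 differed by 0.14 ± 0.19. Of the 22 assembly and rRNA modification factors, 9 were above 0 and 13 below (median -0.13, or 0.051 without control library 1). Fastkd2, an RNA-binding protein needed to build the large subunit, had 61.7 CPM in both control libraries and 52 and 43 CPM in the Usp28 KO libraries (-0.38 ± 0.17, edgeR, adjusted p = 0.442). Mtg1, a GTPase of large subunit assembly, differed by 0.31 ± 0.19 and the rRNA methyltransferase Mrm1 by 0.40 ± 0.25.

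Of the 12 translation factors listed 11 were tested, 5 above 0 and 6 below (median -0.061, or 0.066 without control library 1). Mtres1 was left out because GENCODE M21 holds no gene of that symbol, so its level was not read. The initiation factor Mtif2 differed by -0.27 ± 0.17, Mtfmt, which formylates the initiator methionyl-tRNA, by 0.24 ± 0.22, and the elongation factor Guf1 by 0.19 ± 0.18. The list of tRNA charging genes held the mitochondrial aminoacyl-tRNA synthetases and Gatb, Gatc and Qrsl1, subunits of an amidotransferase that finishes the charging of glutamine. Of its 20 genes 11 were above 0 and 9 below (median 0.011, or -0.058 without control library 2). Vars2, which charges valine, had 42.2 and 36.7 CPM in control and 53.9 and 47.5 CPM in Usp28 KO libraries (0.36 ± 0.18, edgeR, adjusted p = 0.479), without overlap. Sars2, with both Usp28 KO libraries below both controls, differed by -0.35 ± 0.19. Nars2, which charges asparagine, differed by 0.32 ± 0.24. Of 10 genes of mitochondrial DNA maintenance and transcription 3 were above 0 and 7 below (median -0.078, between -0.17 without Usp28 KO library 1 and -0.0074 without control library 1). Tfb2m, a transcription initiation factor, had 14.9 and 17.9 CPM in control and 10.4 and 13.9 CPM in Usp28 KO libraries (-0.43 ± 0.23), without overlap. Lrpprc, which stabilises mitochondrial messages, differed by -0.22 ± 0.16, and the DNA polymerase gene Polg by 0.25 ± 0.17.

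The ribosomal RNAs of the mitoribosome lay below 0, as did mitochondrially encoded transcripts at large. Of the 23 mitochondrially encoded genes tested, these rRNAs included, 22 had a log2 fold change below 0, with a median of -0.84. Of all 15341 genes tested 7757 were below 0. Both Usp28 KO libraries lay below both controls for 7 of the 23 (30.4%), against 20.4% of all genes tested. The summed level of the 23 was 27700 and 59130 CPM in control and 18490 and 33180 CPM in Usp28 KO libraries, which overlapped. These RNAs were read here through oligo(dT) selection, which does not measure the whole rRNA pool. The small subunit rRNA mt-Rnr1 had 68.2 and 116.3 CPM in control and 66.3 and 59.6 CPM in Usp28 KO libraries (log2 difference -0.55 ± 0.23, edgeR, adjusted p = 0.387). The large subunit rRNA mt-Rnr2 had 484.8 and 829.4 CPM in control and 335.1 and 380.4 CPM in Usp28 KO libraries (-0.88 ± 0.23, edgeR, adjusted p = 0.177; DESeq2, adjusted p = 0.0264). Control library 2 was high for both, and their median log2 fold change of -0.71 was -0.29 without it and -0.31 after GC correction. Of 10 transcription factors of mitochondrial genes 9 were tested, 1 above 0 and 8 below (median -0.18, between -0.26 without control library 1 and -0.081 without Usp28 KO library 1). Myc had 9.88 and 9.71 CPM in control and 2.09 and 4 CPM in Usp28 KO libraries (-1.68 ± 0.32, edgeR, adjusted p = 0.0715; DESeq2, adjusted p = 0.00453), with a wide gap between the groups. Yy1 had 136.5 and 129.3 CPM in control and 113 and 103.9 CPM in Usp28 KO libraries (-0.29 ± 0.16, edgeR, adjusted p = 0.522), without overlap. Gabpa differed by -0.28 ± 0.18. For comparison, the 82 cytosolic ribosomal protein genes tested had a median log2 fold change of 0.18, with 70 above 0 and 12 below. By edgeR 0 passed, and 7584 of all 15341 genes tested were above 0. Both Usp28 KO libraries lay above both controls for 12 of the 82 (14.6%), against 21.4% of all genes tested. Their summed level was 51510 and 43680 CPM in control and 58610 and 48980 CPM in Usp28 KO libraries, which overlapped.

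**Figure D5:**
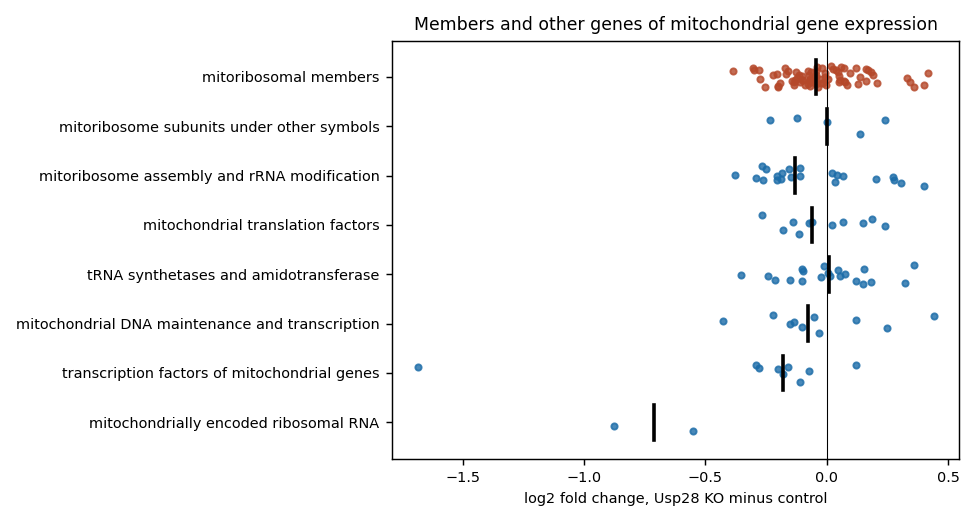
Log2 fold change (Usp28 KO minus control, x axis) of the 77 members and of the genes of 7 lists of mitochondrial gene expression, with 1 point per gene and a black bar for the median. The members lie from -0.38 to 0.42 around a median of -0.043 (0.018 with library totals in place of TMM), and the points farthest to the left are Myc at -1.68 and the mitochondrial rRNAs.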

How the data were processed

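The labels describe oligo(dT)-selected RNA-seq libraries made with an Illumina TruSeq kit. Raw read counts for each gene were deposited as the authors made them, and the submitters' processing notes name HISAT2, featureCounts, DESeq2 and mm10 without versions. Not given in the sources used here are the annotation release, the strand setting and what was done with reads that map to more than 1 place. The exon length column is as deposited by the authors. Identifiers were matched to GENCODE M21 without version suffix (55141 of 55401).

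Genes were filtered with filterByExpr (minimum count 10), scaled by TMM and tested with edgeR 4.0.16 (R 4.3.3) by its quasi-likelihood test with group as the only term, with Benjamini-Hochberg adjustment over all 15341 genes tested. The SE of a log2 fold change was computed from the test statistic. CPM values use TMM-scaled totals. DESeq2 1.42.0, limma-voom 3.58.1, other scalings, other filters, GC correction by a spline with 5 degrees of freedom, a replicate block and leaving out each library were the alternatives. Scripts were tested on simulated data. Motifs were searched in RefSeq promoter windows by exact match.

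The members and lists were chosen with earlier results of these data known. Named were the 4 highest and 4 lowest fold changes in each subunit (at 5 CPM or more), the 3 highest and 3 lowest levels per length, fixed members, members with overlapping exons or below the filter, the 3 smallest p-values of each list, and Usp28, Myc and the mitochondrial rRNAs. Other names, such as Mrps27, Mrpl28, Mrps11 and Ska3, were chosen after their values were seen. Libraries of 16595196 to 19533608 counts gave a median SE of 0.189 for members, and the floor for a count of 0 is 3 counts.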

Additional observations from a re-analysis of the deposited data

How the results depend on the processing

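The direction of most members rested on single libraries: 24 of 77 kept the sign of their fold change in all 14 alternatives and 29 in all fits with a library left out, in which the lone library of a group is assumed to vary like the other group. Calls over all genes went from 0 higher and 0 lower to 81 and 49 with DESeq2, 24 and 5 with library totals, 204 and 118 with no filter, and 4 and 3 with mitochondrially encoded and the 20 most abundant genes removed. With a library left out they ranged from 49 to 146 higher and from 31 to 200 lower. The count of members called was 0 in these fits, except 0 to 1 lower with a library left out (Mrps2, without Usp28 KO library 2). The cause was not tested.

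With the replicate number as a block, 965 genes were called higher and 716 lower, and 0 members in either direction. With the block and GC correction together, 936 of the 15341 genes were called higher and 1548 lower. Of the 77 members, 1 was called higher (Mrpl57) and 5 lower (Mrpl4, Mrpl46, Mrps2, Mrps18b and Mrps34). In each direction the share of members called was below the share of all genes called. The labels do not say that a number marks a batch. Across all genes tested, the gap between libraries 2 and 1 in control had a correlation of 0.354 with that in Usp28 KO. Across members the correlation was 0.769, and with 2 pairs this does not establish a pairing.

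Some named members turned sign. Mrpl12 was -0.011 with limma-voom, -0.0029 with abundant genes removed, -0.012 with the block, -0.16 with GC correction and -0.16 with both. With library totals Mrpl48 was 0.015, Mrpl34 0.053, Mrpl58 0.041, Mrps30 0.022 and Mrps36 0.018, and with a filter of 50 counts Mrpl34 was 0.0061. With GC correction Mrpl54 was -0.049, Mrpl2 -0.036 and Mrps30 0.066, and with GC correction and the block they were -0.046, -0.045 and 0.066. With a library left out, large subunit members ranged as follows: Mrpl48 from -0.20 to 0.12, Mrpl34 from -0.18 to 0.14, Mrpl12 from -0.33 to 0.27, Mrpl58 from -0.063 to 0.014, Mrpl33 from -0.28 to 0.47, Mrpl2 from -0.080 to 0.35, Mrpl43 from -0.18 to 0.83 and Mrpl10 from -0.19 to 0.021. Others ranged likewise: Mrps6 from -0.32 to 0.23, Mrps18a from -0.19 to 0.0077, Mrps12 from -0.10 to 0.47, Mrps15 from -0.30 to 0.14, Mrps30 from -0.14 to 0.050, Mrps36 from -0.21 to 0.10 and Mrps2 from -0.72 to 0.022.

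Medians of lists moved by more than the replicate spread in some fits. With library totals they were 0.031 for the large subunit, 0.0027 for its mitochondria-specific members, -0.075 for those of the small subunit, -0.014 for mitochondrial DNA maintenance, 0.00033 for translation factors and -0.12 for transcription factors. With GC correction, alone and then with the block, they were -0.11 and -0.11 for the large subunit, -0.11 and -0.11 for its members with bacterial homologues, -0.10 and -0.10 for its mitochondria-specific members, -0.0060 and -0.0062 for mitochondrial DNA maintenance, and -0.31 and -0.30 for the rRNAs, and translation factors stood at -0.045 with GC correction alone. With a library left out, medians ranged from -0.070 to -0.015 (large subunit, mitochondria-specific), -0.074 to 0.19 (small subunit, bacterial homologue), -0.23 to -0.11 (small subunit, mitochondria-specific), -0.17 to 0.20 (subunits under other symbols), -0.25 to 0.051 (assembly), -0.065 to 0.066 (translation factors), -0.058 to 0.076 (tRNA charging), -0.17 to -0.0074 (DNA maintenance), -0.26 to -0.081 (transcription factors) and -1.05 to -0.29 (rRNAs).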

Other observations

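Among named pseudogenes of members, Mrpl48-ps had 73, 70, 83 and 63 counts (control 1 and 2, then Usp28 KO 1 and 2), where Mrpl48 had 308, 202, 278 and 240, and how reads matching both were counted is not given in the sources used here. Mrpl23-ps1 had 6, 10, 7 and 2 counts, and the 3 pseudogenes of Mrps36 had at most 1 count in any library. Slirp, the partner of Lrpprc in messenger RNA stability, shares 97.8% of its exon bases with other genes. It stood at 1.33 and 2.08 CPM in control and 3.21 and 1.39 CPM in Usp28 KO libraries, so its level cannot be read from this table.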
